A study of Homo sapiens with 3 samples.

Results

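The cancer-testis antigen families described here are the 72 genes, of 24424 in the deposited count table, whose symbols belong to the MAGEA, MAGEB, MAGEC, PAGE, GAGE, XAGE, SSX and CTAG series. The genes were taken by symbol alone, whatever their counts, but the families were chosen with earlier results of these data known. The 8 families held 13 MAGEA, 10 MAGEB, 3 MAGEC, 6 PAGE, 21 GAGE, 5 XAGE, 11 SSX and 3 CTAG genes. Of the 72 genes, 31 had no count in any library, 23 had counts that never reached 10 in a library, and 18 had at least 10 counts in 1 library. These 18 are named below with their counts.

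Messenger RNA of A375SM cells, a metastatic derivative of the human melanoma line A375, was sequenced. The cells were infected with lentiviral vectors that carry a green fluorescent reporter and are named shEmpty, shBAP1 and shPRAME, and positive cells were selected into stable populations. The shBAP1 population is labelled a BAP1 knockdown and the shPRAME population a PRAME knockdown. The shEmpty control is labelled WT in one place and a non-targeting hairpin in another, so whether it carried a hairpin is not settled by the labels. All 3 populations share the vector and the selection, and each is represented by 1 library. Spread between replicates is therefore unknown for every value below, and no p-values are given.

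Cancer-testis genes are active in male germ cells and silent in most other adult tissues, where methylation of their promoters is known to keep them off. Many tumours, melanoma prominent among them, express some of them again, and peptides from their proteins can be recognised by T cells, which is how the first MAGE gene was found. MAGE proteins share a MAGE homology domain with which they bind RING-type ubiquitin ligases. GAGE, PAGE and XAGE proteins are small, acidic and largely unstructured relatives of each other, SSX proteins are transcriptional repressors known from the SS18-SSX fusions of synovial sarcoma, and CTAG1 and CTAG2 encode NY-ESO-1 and LAGE-1. All 8 families lie on the X chromosome, and several of them contain near-identical copies.

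The libraries held 19430130 counts (shEmpty), 14181829 counts (shBAP1) and 18456328 counts (shPRAME). Levels are counts scaled to library size with TMM factors (CPM), and a count of 0 allows up to 3 counts, or 0.16, 0.202 and 0.164 CPM in that order. PRAME, itself a cancer-testis antigen but outside these families, was at 327 CPM in shEmpty, 455 CPM in shBAP1 and 108 CPM in shPRAME. BAP1, a nuclear deubiquitinase, was at 100.0, 35.2 and 97.9 CPM. Each target was thus lowest in the library with its own hairpin. The melanoma label was checked against 13 melanoma and melanocyte markers, whose summed level was 2672, 1986 and 4715 CPM. Of these sums CSPG4 alone gave 1295, 447 and 3095 CPM. SOX10 (506, 367 and 657 CPM) and MITF (309.9, 239 and 114 CPM) were present in all 3 libraries, whereas the pigment genes PMEL, MLANA, TYR and TYRP1 had 0 to 6 counts in shEmpty and TYR had none in shPRAME.

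A gene was called higher or lower where its mean count over the 3 libraries was at least 50, the scaled counts differed at least 2-fold, and the exact 95% interval of the ratio, which covers counting error only, left out no change. Such a call compares 2 libraries, not the conditions. Of the 72 members 12 reached the count minimum, and some of them only through the library in which they were high, so the counts of calls and the medians below are descriptions. MAGEB2, MAGEA10 and MAGEC1 in particular have at most 10 counts in shEmpty, and their passing raises the medians over shEmpty.

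Against shEmpty, the shBAP1 library held more MAGEA1, MAGEA10, MAGEA11, MAGEB2, MAGEC1 and MAGEC2. These 6 of the 12 members above the minimum were called higher, where 5.53% of all 11956 measured genes were. None was called lower, where 8.56% of all measured genes were. With total-count scaling the shares of all genes were 6.93% higher and 7% lower, and the same 6 members were called. MAGEB2 had the widest difference, 132-fold (36.1 to 1096), on 2 counts in shEmpty. The median log2 ratio of the 12 members was 1.01, beside -0.03 over all measured genes and -0.01 over the 382 measured X-linked genes outside the families.

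Against shEmpty, the shPRAME library held more MAGEA10, MAGEC1 and MAGEC2 and far less PAGE5. The 3 members called higher stood beside 10.2% of all measured genes, and the 1 called lower beside 9.08%. PAGE5 was 106-fold lower (58.9 to 213). The other 8 members were within the 2-fold limit or, for MAGEB2, had an interval that included no change (0.955 to 43.9). With upper-quartile scaling that interval was 1.01 to 46.6 and MAGEB2 was called higher as well. The median log2 ratio was -0.17, beside -0.06 over all measured genes and 0.04 over the measured X-linked genes outside the families. Both comparisons use the same shEmpty library, so a count that happened to be low or high there enters both ratios.

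Set directly against shBAP1, the shPRAME library held more MAGEA10 and MAGEC1 (14.2% of all measured genes were called higher) and less MAGEA1, MAGEA11, MAGEB2 and PAGE5 (10.9% were called lower). The remaining 6 members were not called, and the median log2 ratio of the 12 was -0.69, beside -0.06 over all measured genes. Over all 72 members the summed level was 778 CPM in shEmpty, 1141 CPM in shBAP1 and 671 CPM in shPRAME. The sum was 1.47-fold higher in shBAP1 than in shEmpty (1.43 to 1.5) and 1.16-fold lower in shPRAME (1.13 to 1.19), both short of the 2-fold limit.

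**Figure D1:**
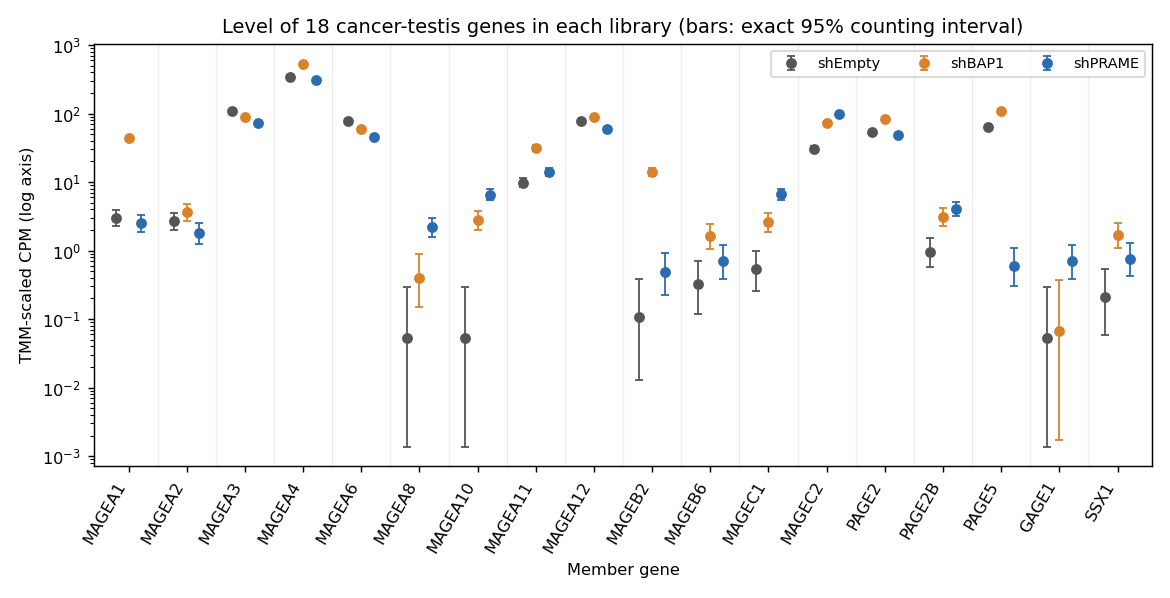
TMM-scaled counts (CPM) on a log axis for the 18 members with at least 10 counts in 1 library; points are the shEmpty, shBAP1 and shPRAME libraries and bars are exact 95% counting intervals. MAGEA4 is the highest in CPM in every library, and PAGE5 is the member whose shPRAME point lies farthest below its other points.

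PAGE5 and PAGE2, genes of the small acidic PAGE proteins, had similar counts in shEmpty and parted in shPRAME. PAGE5 had 1193 counts in shEmpty, 1623 in shBAP1 and 11 in shPRAME. It was therefore high in the shEmpty and shBAP1 libraries and near the floor in shPRAME, 182-fold below shBAP1 (101 to 365). PAGE2 had 994, 1219 and 875 counts and was called in no comparison. Its ratio to shEmpty was 1.55-fold higher in shBAP1 (1.42 to 1.68) and 1.11-fold lower in shPRAME (1.01 to 1.22). PAGE5 was 1.72-fold higher in shBAP1 (1.59 to 1.85), also short of the limit.

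The composition of the family followed. PAGE5 made up 54% of the PAGE counts in shEmpty, 56.1% in shBAP1 and 1.14% in shPRAME, and PAGE2 made up 45%, 42.1% and 90.7%. PAGE2B, a close copy of PAGE2, had 18, 46 and 75 counts, which is 3.23-fold higher in shBAP1 (1.83 to 5.91) and 4.27-fold higher in shPRAME (2.53 to 7.59) but below the count minimum. PAGE2 and PAGE2B together had 1012, 1265 and 950 counts, 1.04-fold lower in shPRAME than in shEmpty (0.95 to 1.14). The whole family was 2.23-fold lower in shPRAME (2.07 to 2.41), and without PAGE5 the log2 ratio went from -1.16 to -0.06. Of the other 3 PAGE genes, PAGE1 had 5, 6 and 4 counts and the family's remaining counts were fewer.

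The promoters of PAGE2 and PAGE5 are shown because the transcripts differ in shPRAME while the sequences are close. Both run from 250 bases before to 50 bases after the start site on the + strand of GRCh38.p14, at chrX:55088768-55089067 for PAGE2 and chrX:55220096-55220395 for PAGE5, from RefSeq. Capitals mark GGGCGG, a GC box as bound by SP1, and CACGTG, the E-box core bound by MYC and USF proteins.
PAGE2: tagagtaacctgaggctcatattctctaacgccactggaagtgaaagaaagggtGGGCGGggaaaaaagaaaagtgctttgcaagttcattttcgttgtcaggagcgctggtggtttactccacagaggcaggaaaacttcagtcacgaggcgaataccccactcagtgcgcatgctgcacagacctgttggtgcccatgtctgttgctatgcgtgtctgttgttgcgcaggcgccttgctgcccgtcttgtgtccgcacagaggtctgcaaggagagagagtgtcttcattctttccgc
PAGE5: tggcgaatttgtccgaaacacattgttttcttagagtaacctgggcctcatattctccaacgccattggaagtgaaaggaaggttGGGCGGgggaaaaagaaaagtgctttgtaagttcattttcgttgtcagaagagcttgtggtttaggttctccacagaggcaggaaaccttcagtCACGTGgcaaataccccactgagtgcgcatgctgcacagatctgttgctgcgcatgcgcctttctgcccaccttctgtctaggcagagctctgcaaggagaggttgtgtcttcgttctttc
The aligned part was identical at 235 of 265 bases (88.7%). Each window held 1 GGGCGG, which 45% of the 35116 promoters in the table hold on either strand. CACGTG, the same on both strands, stood 71 bases before the PAGE5 start site and 37 bases before that of PAGE2B, and did not occur in the PAGE2 window. It occurs in 7.26% of all promoters. A match of letters is a description of the sequence and says nothing about binding.

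**Figure D2:**
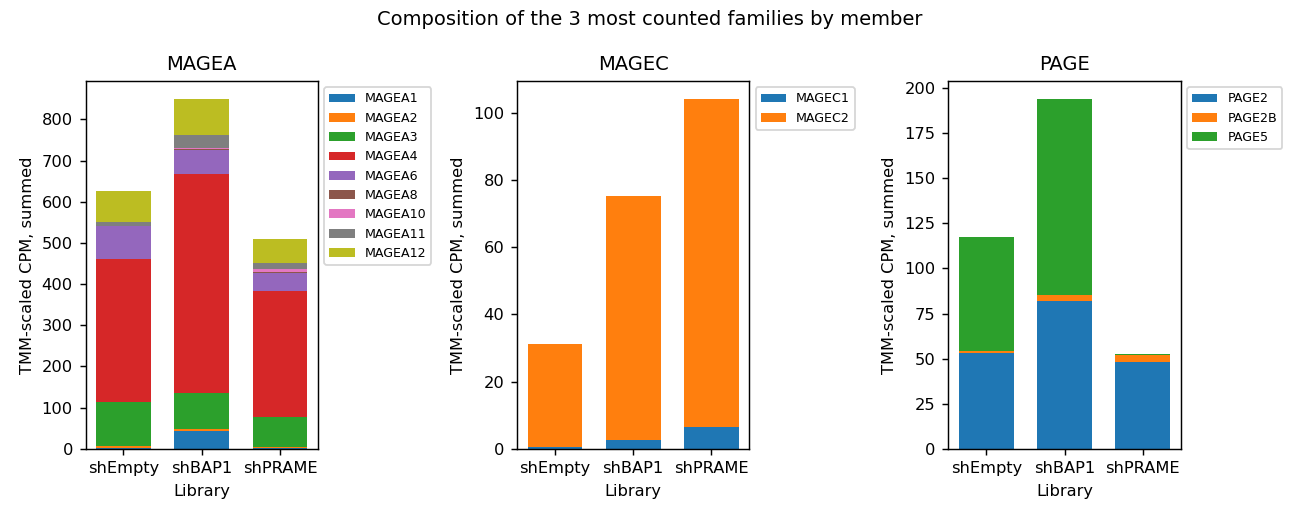
Stacked bars of TMM-scaled counts (CPM) for the named members of the MAGEA, MAGEC and PAGE families in the shEmpty, shBAP1 and shPRAME libraries, with each panel on its own axis from 0. The PAGE5 segment holds 54% and 56.1% of the PAGE counts in shEmpty and shBAP1 and is hardly visible in shPRAME, at 1.14%.

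MAGEC1 and MAGEC2, neighbouring genes whose proteins are tumour antigens, were higher than in shEmpty in both hairpin libraries, with the most in shPRAME. MAGEC2, a partner of the ligase TRIM28, had 578 counts in shEmpty, 1081 in shBAP1 and 1786 in shPRAME. It was 2.36-fold higher in shBAP1 (2.13 to 2.62) and 3.17-fold higher in shPRAME (2.88 to 3.48). The direct ratio of shPRAME to shBAP1 was 1.34 (1.24 to 1.45), short of the limit. MAGEC1 had 10, 39 and 121 counts, 4.92-fold higher in shBAP1 (2.41 to 11.1), 12.4-fold higher in shPRAME (6.52 to 26.5) and 2.52-fold higher in shPRAME than in shBAP1 (1.74 to 3.71). MAGEC2 held 98.3%, 96.5% and 93.6% of the MAGEC counts. The third gene, MAGEC3, had 1 count in all, in shPRAME.

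Their promoters are shown as a pair that was called in the same direction in both comparisons with the shared control. MAGEC1 lies on the + strand at chrX:141903644-141903943 and MAGEC2 on the - strand at chrX:142205241-142205540 (GRCh38.p14, RefSeq), and each is written 5′ to 3′ along its own gene. Capitals mark CCGGAT, the core of a site for ETS family factors, and GGGCGG, either of them also as the reverse complement (ATCCGG and CCGCCC).
MAGEC1: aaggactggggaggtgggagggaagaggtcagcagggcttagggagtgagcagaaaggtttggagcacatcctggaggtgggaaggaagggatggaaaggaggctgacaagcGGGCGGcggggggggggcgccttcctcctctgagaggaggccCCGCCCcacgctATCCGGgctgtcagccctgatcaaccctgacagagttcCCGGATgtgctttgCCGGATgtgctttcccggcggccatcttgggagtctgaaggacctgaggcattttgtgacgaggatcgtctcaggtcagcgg
MAGEC2: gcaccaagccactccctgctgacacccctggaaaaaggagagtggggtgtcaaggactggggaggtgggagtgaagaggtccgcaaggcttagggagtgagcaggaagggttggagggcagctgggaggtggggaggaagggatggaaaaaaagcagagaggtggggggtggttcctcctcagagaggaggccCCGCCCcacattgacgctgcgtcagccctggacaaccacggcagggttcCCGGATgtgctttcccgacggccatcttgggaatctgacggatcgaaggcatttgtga
The aligned part was identical at 211 of 249 bases (84.7%). MAGEC2 held 1 CCGGAT, 8 bases before its start site. MAGEC1 held 3, at 46 and 32 bases before the start site on the gene's strand and at 84 bases before it on the other strand. CCGGAT occurs in 7.12% of all promoters in the table.

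The MAGEA family supplied most of the counts, and its 4 most counted genes stayed within the 2-fold limit in every comparison. MAGEA4, whose protein is the target of an engineered T-cell therapy, had 6505, 7881 and 5595 counts. It was 1.53-fold higher in shBAP1 (1.48 to 1.58) and 1.13-fold lower in shPRAME (1.09 to 1.18), and was called in no comparison. It held 55.4%, 62.4% and 60.1% of the MAGEA counts. MAGEA12 had 1436, 1322 and 1078 counts, 1.16-fold higher in shBAP1 (1.08 to 1.25) and 1.3-fold lower in shPRAME (1.2 to 1.41).

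MAGEA3 and MAGEA6, a near-identical pair whose proteins partner with TRIM28, were lower in both hairpin libraries by less than the limit. MAGEA3 had 2043, 1314 and 1321 counts, 1.23-fold lower in shBAP1 (1.15 to 1.32) and 1.51-fold lower in shPRAME (1.41 to 1.62). MAGEA6 had 1476, 892 and 826 counts, 1.31-fold lower (1.21 to 1.43) and 1.74-fold lower (1.6 to 1.9). Reads shared by the pair may be split between the rows, which leaves the sum unaffected. They may also have been dropped, which would lower it, and how they were counted is not known. The sum was 3519, 2206 and 2147 counts, 1.26-fold lower in shBAP1 (1.2 to 1.33) and 1.6-fold lower in shPRAME (1.52 to 1.69). MAGEA3 held 58.1%, 59.6% and 61.5% of the pair's counts. MAGEA2, almost the same as MAGEA2B, had 51, 54 and 33 counts against none for MAGEA2B, and lay below the count minimum.

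The pair is shown because not even its promoters can be told apart. The windows at chrX:152698544-152698843 on the + strand (MAGEA3) and chrX:152769640-152769939 on the - strand (MAGEA6) of GRCh38.p14 were identical at 300 of 300 bases, so 1 is printed for both. Capitals mark CCGGAA, the usual ETS core, which 17.2% of all promoters hold. 
MAGEA3: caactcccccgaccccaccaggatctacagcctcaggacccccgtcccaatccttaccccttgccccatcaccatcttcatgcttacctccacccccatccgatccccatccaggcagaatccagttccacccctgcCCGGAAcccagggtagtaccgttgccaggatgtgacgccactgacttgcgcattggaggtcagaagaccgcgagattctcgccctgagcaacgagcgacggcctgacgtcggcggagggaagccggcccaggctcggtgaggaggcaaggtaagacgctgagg
The only match lay 113 bases before the start site, and the window held no CCGGAT.

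MAGEA1, MAGEA10 and MAGEA11 were the MAGEA genes called higher in shBAP1. MAGEA1, the first tumour antigen gene of this kind to be cloned, had 56 counts in shEmpty, 646 in shBAP1 and 46 in shPRAME. It was high in shBAP1 only, 14.6-fold above shEmpty (11.1 to 19.5), while shPRAME was 1.19-fold lower than shEmpty (0.79 to 1.79) and 17.3-fold lower than shBAP1 (12.8 to 23.9). MAGEA11, known as a coregulator of the androgen receptor, had 183, 467 and 256 counts. It was 3.22-fold higher in shBAP1 (2.71 to 3.84) and 1.43-fold higher in shPRAME (1.18 to 1.74), and shPRAME was 2.25-fold below shBAP1 (1.92 to 2.63).

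MAGEA10 and MAGEA8 had their highest counts in shPRAME. MAGEA10 had 1, 41 and 119 counts, 51.7-fold higher in shBAP1 (8.78 to 2093) and 122-fold higher in shPRAME (21.5 to 4857), both resting on the single count in shEmpty. With a pseudocount of 1 CPM the log2 ratios were 1.84 in place of 5.69 and 2.83 in place of 6.93. The direct ratio does not use that count, and shPRAME was 2.36-fold above shBAP1 (1.64 to 3.45). MAGEA8 had 1, 6 and 40 counts, below the minimum, with shPRAME 5.41-fold above shBAP1 (2.28 to 15.6). MAGEA9, MAGEA9B and MAGEA2B had no count in any library.

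MAGEB2, a MAGE gene best known from testis, was the member with the sharpest contrast between the hairpin libraries after PAGE5. It had 2 counts in shEmpty, 209 in shBAP1 and 9 in shPRAME. It was 132-fold higher in shBAP1 than in shEmpty and 28.6-fold lower in shPRAME than in shBAP1 (14.8 to 63.4), whereas shPRAME was 4.61-fold above shEmpty, a difference whose call depends on the scaling, as given above. On a scale of log2(CPM + 1), the ratio of shBAP1 to shEmpty was 3.77 in place of 7.04. It held 87.4% of the MAGEB counts in shBAP1. MAGEB6 had 6, 24 and 13 counts, 5.05-fold higher in shBAP1 (2.01 to 15.1) but below the minimum, and the other 8 MAGEB genes had at most 3 counts in a library.

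The promoters of MAGEB2 and MAGEA11 are shown as those of genes called higher in shBAP1 and lower in shPRAME than in shBAP1. Both lie on the + strand of GRCh38.p14, at chrX:30215313-30215612 and chrX:149711810-149712109 (RefSeq), with CCGGAT and GGGCGG in capitals on either strand as above.
MAGEB2: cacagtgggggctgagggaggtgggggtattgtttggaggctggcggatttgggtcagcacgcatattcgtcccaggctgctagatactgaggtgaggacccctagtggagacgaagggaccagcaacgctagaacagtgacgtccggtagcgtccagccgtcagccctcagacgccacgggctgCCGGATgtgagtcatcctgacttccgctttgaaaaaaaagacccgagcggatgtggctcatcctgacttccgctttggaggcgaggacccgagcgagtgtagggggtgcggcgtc
MAGEA11: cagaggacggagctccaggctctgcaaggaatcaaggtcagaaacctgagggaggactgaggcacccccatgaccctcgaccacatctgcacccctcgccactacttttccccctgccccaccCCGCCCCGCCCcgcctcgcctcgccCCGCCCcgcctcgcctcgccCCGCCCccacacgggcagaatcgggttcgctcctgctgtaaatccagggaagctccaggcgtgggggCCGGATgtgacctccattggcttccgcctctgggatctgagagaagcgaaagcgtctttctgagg
Each held 1 CCGGAT, 65 bases before the MAGEB2 start site and 15 bases before that of MAGEA11. The MAGEA11 window held 4 GGGCGG, all on the other strand, and the MAGEB2 window none. Both had 21 CG dinucleotides, the most of any start site of the named members, whose median was 13.0 beside 14 over all promoters. Of the 18 named members, 16 were in the promoter table, with 23 start sites, and MAGEA1 and MAGEA10 were not. CCGGAT occurred at 14 of the 23, beside 7.12% of all promoters, though several of these windows are close copies of each other. The motif was also chosen after these sequences were seen, so the shares are a description and cannot test for an excess. In all, 8 of the 16 members held it at 1 or more start sites. Among these 8 were MAGEA4 and MAGEA12, which were called in no comparison, as well as MAGEC1 and MAGEC2.

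**Figure D3:**
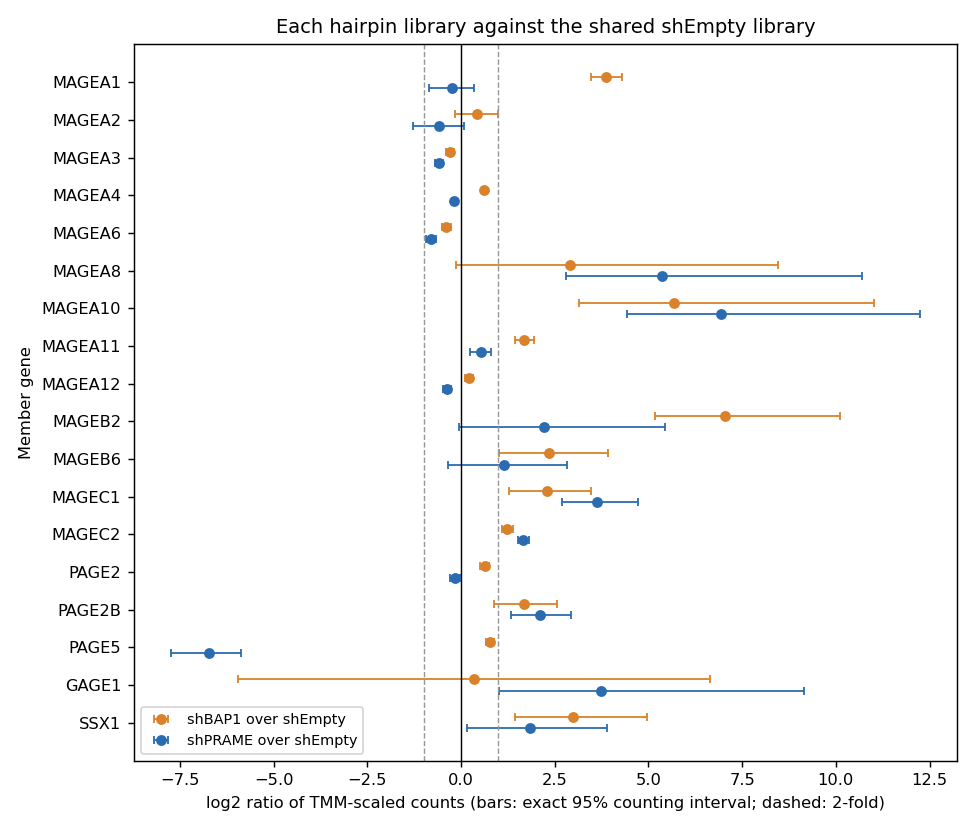
Log2 ratios of TMM-scaled counts for the 18 named members, shBAP1 over shEmpty and shPRAME over shEmpty, with exact 95% counting intervals and dashed lines at 2-fold. MAGEA1 and MAGEB2 stand far to the right in shBAP1 and not, or with an interval that includes 0, in shPRAME, and PAGE5 stands far to the left in shPRAME alone.

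The SSX, GAGE, CTAG and XAGE genes had few counts, at most 25 for any gene in a library. Many GAGE, SSX and CTAG1 transcripts share most of their sequence with a copy, so their counts also depend on how shared reads were treated, which is not known. SSX1 had 4, 25 and 14 counts, 7.89-fold higher in shBAP1 than in shEmpty (2.72 to 31.2). SSX2 and SSX2B, whose transcripts share every window of 100 bases, together had 2, 13 and 0 counts, at least 5.34-fold lower in shPRAME than in shBAP1 at the floor of 3 counts. The 11 SSX genes summed to 8, 50 and 15 counts, 7.89-fold higher in shBAP1 (3.71 to 19.3). GAGE1 had 1, 1 and 13 counts, and the 21 GAGE genes summed to 11, 8 and 29, with 15 of them at 0 throughout. CTAG1A had 1, 2 and 4 counts, CTAG1B 0, 0 and 2, and CTAG2 2, 3 and 8. CTAG1A and CTAG1B share 83.7% and 83.2% of their 100-base stretches with another gene, so these rows do not settle the level of the NY-ESO-1 messenger. Of the 5 XAGE genes 4 had no count, and XAGE3 had 1 count in shBAP1. XAGE1B, among those without a count, shares every 100-base stretch with XAGE1A, so its row does not settle its level.

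How far reads can be assigned differs between the members. In the GENCODE release 29 transcripts, 58 of the 72 members could be matched by symbol. The longest protein-coding transcript of each was used. For 10 of the 18 named members, MAGEA1, MAGEA4, MAGEA8, MAGEA11, MAGEA12, MAGEB2, MAGEC1, MAGEC2, PAGE5 and SSX1, no stretch of 100 bases, the length of a read, occurred in another gene. MAGEA2 shared 97.8% of its stretches with MAGEA2B, MAGEA3 and MAGEA6 shared 36.1% with each other, PAGE2B and PAGE2 shared 16% and 15.3%, and MAGEA10 shared 14% with an annotated readthrough transcript. GAGE1 (8.54%) and MAGEB6 (5.89%) shared less. The GAGE1 value is that of a transcript of 2873 bases. The shorter GAGE13, GAGE12J and GAGE10 transcripts, of 530, 541 and 538 bases, shared 80.5%, 77.4% and 19.4%. The 8.54% therefore does not settle how far GAGE1 reads can be assigned. Of the 40 matched members that are not named, 20 shared at least 50% of their stretches, and how the reads of such stretches were counted is not known. In addition, 4 named members overlap another annotated gene, MAGEA4 an antisense transcript and MAGEA10, MAGEA12 and GAGE1 a gene on the same strand. Whether counting used the strand is not given in the sources used here.

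**Figure D4:**
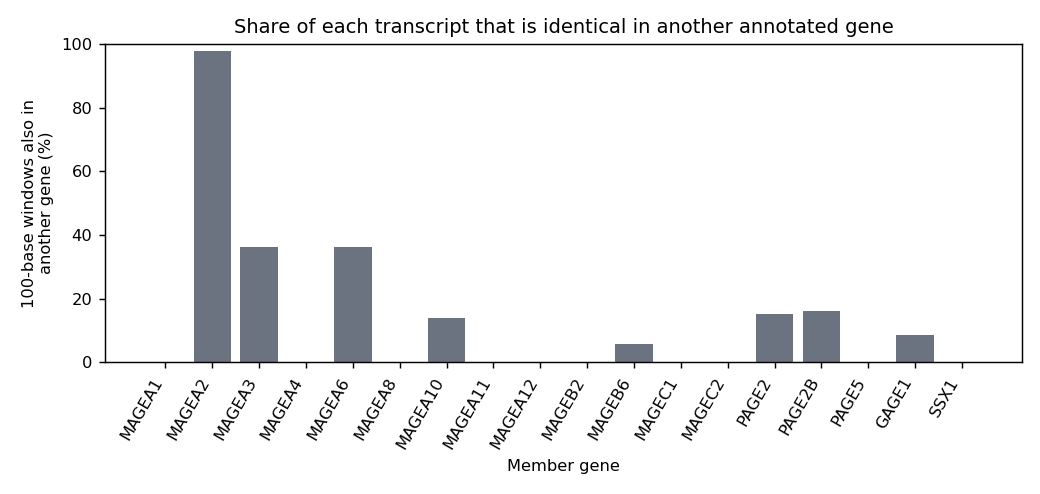
Bars give, for each of the 18 named members, the percent of 100-base stretches that occur unchanged in another annotated gene. The stretches are those of its longest protein-coding GENCODE release 29 transcript, and the axis runs from 0 to 100. MAGEA2 stands at 97.8%, MAGEA3 and MAGEA6 at 36.1%, and 10 members, PAGE5, MAGEB2 and MAGEA1 among them, at 0.

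Levels were compared between members per kilobase of the longest annotated transcript. Stretches shared with another gene, 36.1% in MAGEA3 and 15.3% in PAGE2, were not allowed for. How their reads were counted is not known, so the place of MAGEA3 in the orders below is uncertain. On that scale MAGEA4 was the highest in each library, at 196, 299 and 173 CPM per kb. In shEmpty it was followed by PAGE2 (96.3), PAGE5 (85.9) and MAGEA3 (61.9). PAGE2 (149) and PAGE5 (148) were level in shBAP1, where MAGEA1 reached 25.4 from 1.75 in shEmpty and MAGEB2 reached 8.74 from 0.0663. In shPRAME the order after MAGEA4 was PAGE2 (86.9), MAGEC2 (49.1) and MAGEA3 (41), with PAGE5 at 0.812. MAGEA10 and MAGEC1 stayed below these even where they were highest, at 2.37 and 1.55 CPM per kb in shPRAME.

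The members lie in several clusters on the X chromosome, and the nearest measured genes that are not members were compared with them. Of 19 such neighbours, 4 were called higher and 0 lower in shBAP1 and 6 higher and 0 lower in shPRAME, with medians of -0.03 and -0.05. Over all measured genes 5.53% were called higher and 8.56% lower in shBAP1, and 10.2% and 9.08% in shPRAME, and the same shares apply to the lists that follow. Next to MAGEB2, IL1RAPL1 had 66, 386 and 371 counts and GK, glycerol kinase, had 26, 69 and 88. Both were called higher in both libraries, and MAGEB2 was called higher in shBAP1. In shPRAME the log2 ratio of MAGEB2 over shEmpty, 2.21, lay between those of GK (1.79) and IL1RAPL1 (2.53). With TMM scaling it was not called there, because its interval, on 9 and 2 counts, included no change. LDOC1, the gene before MAGEC1 and MAGEC2, had 42, 89 and 275 counts, with log2 ratios of 1.42 and 2.75. On their other side FMR1 had 885, 653 and 563 counts, with log2 ratios of -0.1 and -0.62, and was not called. Around the PAGE genes APEX2 had 704, 478 and 392 counts and was not called, and MAGEH1 had 39, 111 and 81 and was called higher in both. CSAG1, which lies among MAGEA3, MAGEA12, MAGEA2 and MAGEA6, had 484, 403 and 430 counts, and NSDHL and ZNF275 on either side of MAGEA1 were not called. These neighbours are listed by position and include genes named after their values were seen.

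**Figure D5:**
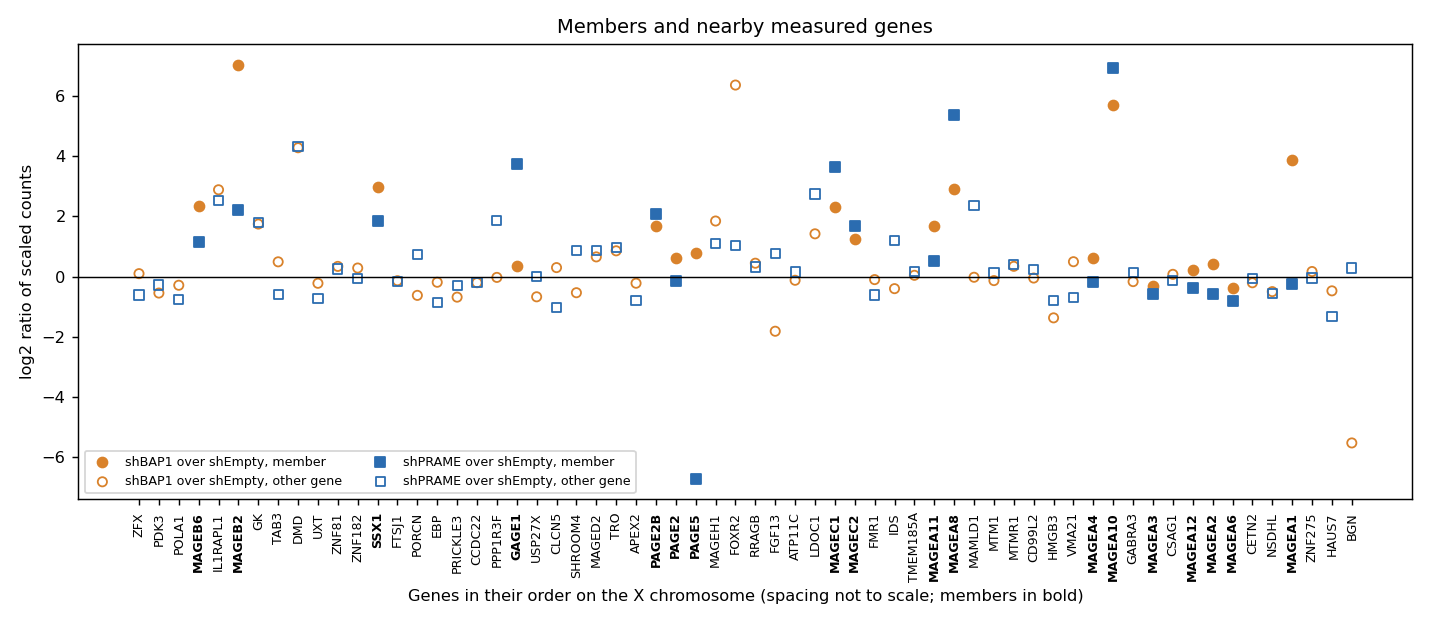
Log2 ratios over shEmpty for members (filled) and nearby measured genes (open) in their order along the X chromosome, with equal spacing rather than distance; circles are shBAP1 and squares shPRAME. The PAGE5 square, at -6.73, lies apart from the PAGE2 and MAGEH1 squares beside it, and IL1RAPL1 and GK lie above 0 on both sides of MAGEB2.

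Other cancer-testis genes were called in either direction. Of 49 further X-linked gene symbols, 41 were in the table and 4 were measured. FAM133A had 4, 647 and 424 counts, 204-fold higher in shBAP1 (79.4 to 752) and 109-fold higher in shPRAME (42.1 to 401). IL13RA2, a decoy receptor for interleukin 13, had 19362, 6239 and 44323 counts, 2.46-fold lower in shBAP1 (2.39 to 2.53) and 2.35-fold higher in shPRAME (2.31 to 2.39). CSAG1 and SAGE1 (377, 289 and 499 counts) were not called against shEmpty. The median log2 ratio was 0.01 in shBAP1 and 0.84 in shPRAME.

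Of 54 autosomal cancer-testis and germ-cell genes, 9 were measured, with 1 higher and 3 lower in shBAP1 (median -0.2) and 0 higher and 2 lower in shPRAME (median -0.32). Of all measured genes 5.53% were higher and 8.56% lower in shBAP1, and 10.2% and 9.08% in shPRAME. SOHLH2, a transcription factor of early germ cells, had 1, 782 and 4 counts. Like MAGEA1 and MAGEB2 it was high in shBAP1 alone among these libraries. LY6K had 720, 65 and 564 counts and was 8.78-fold lower in shBAP1 (6.8 to 11.5). CABYR, a calcium-binding protein of the sperm tail, had 508, 130 and 160 counts and was 3.1-fold lower in both. SPAG1 had 286, 82 and 51 counts, 2.76-fold lower in shBAP1 (2.15 to 3.58) and 5.47-fold lower in shPRAME (4.05 to 7.52), and ODF2 (1322, 915 and 885 counts) was not called. Of 8 germ-cell markers, DDX4, DAZL, SYCP1, PRM1 and PRM2 had no count in any library, TNP1 (4) and ACRV1 (2) had counts in shEmpty alone, and SYCP3 had 14, 8 and 7 counts. The 8 markers summed to 1.07, 0.539 and 0.383 CPM.

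Among the 6 measured MAGE genes that most tissues express, MAGEH1 was 3.59-fold higher in shBAP1 (2.47 to 5.32) and 2.13-fold higher in shPRAME (1.44 to 3.2). MAGED1, an adaptor in apoptosis signalling, had 4758, 3917 and 10838 counts and was 2.33-fold higher in shPRAME (2.26 to 2.42). MAGED2 (1965, 2447 and 3507 counts), MAGEF1 (717, 452 and 990) and NDN (828, 581 and 604) were not called. Medians were 0.1 in shBAP1 and 0.69 in shPRAME.

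Most partners and substrates of MAGE ligases stayed within the 2-fold limit against shEmpty. All 11 were measured, with 1 lower in shBAP1 (median -0.21) and none called in shPRAME (median -0.45). Over all measured genes the medians were -0.03 and -0.06, and 8.56% were called lower in shBAP1. In each comparison 3 of the 11 log2 ratios lay above 0. LNX1, a RING ligase, had 160, 50 and 148 counts and was 2.54-fold lower in shBAP1 (1.84 to 3.56). TRIM28, the corepressor bound by MAGEA3, MAGEA6 and MAGEC2, had 10099, 6937 and 5479 counts, 1.8-fold lower in shPRAME (1.74 to 1.86), short of the limit. CUL2, DCAF12, NSMCE1 and RBX1 were not called.

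Of 21 regulators known to act on methylation-silenced germline promoters, 19 were measured, with 1 lower and none higher in shBAP1 (median -0.26) and 4 lower and none higher in shPRAME (median -0.3). Among all measured genes 8.56% were lower in shBAP1 and 9.08% in shPRAME. TET1, which oxidises methylated cytosine, had 250, 88 and 238 counts and was 2.25-fold lower in shBAP1 (1.76 to 2.9). In shPRAME, ETS2 (308, 147 and 32 counts) was 9.39-fold lower (6.51 to 14) and ETS1 (3803, 5153 and 1300 counts) was 2.85-fold lower (2.68 to 3.04). UHRF1, which guides DNMT1 to newly copied DNA, had 2097, 1352 and 894 counts and was 2.29-fold lower (2.12 to 2.48), and the helicase gene HELLS had 802, 396 and 280 counts and was 2.79-fold lower (2.44 to 3.21). DNMT3B (207, 91 and 167 counts), the methyl-CpG binding ZBTB33 (903, 395 and 824) and ETS1 were not called in shBAP1. DNA methylation was not analysed here.

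Markers of other cell types also differed between the libraries. The 7 fibroblast markers summed to 41, 213 and 721 CPM, of which COL1A2 gave 6.35, 170.4 and 670.0 CPM. LUM gave 19.4, 32.5 and 21.8 CPM, and THY1 was at 0 in shEmpty. PDGFRA, at 14, 2.22 and 24.4 CPM, was lowest in shBAP1, so the markers did not all follow the sum. The 5 keratinocyte markers summed to 34.1, 53.4 and 27.2 CPM, nearly all KRT10, and the 4 endothelial markers to 79.1, 11.7 and 31.3 CPM, nearly all KDR, with CDH5 at 0 in each. The 5 immune markers summed to 2.35, 3.5 and 5.8 CPM. Pigment genes were highest in shBAP1, with TYRP1 at 0, 1037 and 1 counts and DCT at 192, 1668 and 6. Their part in the members' counts was not tested. In bulk RNA, fewer cells that express a gene and less RNA per cell cannot be told apart, and with 1 hairpin for each target, off-target effects cannot be separated.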

How the data were processed

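The values are whole-number read counts per gene, as deposited by the authors, for 3 libraries of A375SM cells. Per the labels, libraries were made from purified mRNA with a directional kit and sequenced as paired reads of 100 bases. The submitters' processing notes list edgeR, Cufflinks, TopHat and FastQC, and the build hg19 (GRCh37). Not given in the sources used here are the counting tool, the annotation, the use of strand and the treatment of reads that map to several places, so counts of near-identical genes are uncertain.

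Counts were scaled with TMM over the 3 libraries (edgeR 4.0.16, R 4.3.3). Log2 ratios have no pseudocount, and a gene at 0 was set to 3 counts. Exact 95% intervals come from the conditional binomial distribution (Python 3.11.15, scipy 1.17.1, pandas 2.3.3, numpy 2.4.6) and cover counting error only, at totals of 14181829 to 19430130 counts. PCR copies were not marked by molecular identifiers, so reads are not all independent molecules. With 1 library a group no test was possible. Calls needed a mean count of 50, a 2-fold difference and an interval without no change, over all 24424 genes. The procedure was tested on simulated data.

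Every member with at least 10 counts in 1 library is named, and of each other list up to 4 measured genes with the largest ratios, of which 1 is not reported here. The members and lists were chosen with earlier results of these data known, and the promoter motifs after the sequences were seen. Promoters are from RefSeq (GRCh38.p14; 50 of 72 members) and transcripts from GENCODE release 29 (GRCh38), newer than the build of the files and used for names, order and sequence only. Alignments used biopython 1.88 and figures matplotlib 3.10.9. The alternatives tried were scaling by DESeq2 (1.42.0), by upper quartile or by total count, a pseudocount of 1 CPM, no count minimum or one of 10, a fold limit of 3 or 1.5, an interval wholly past 2-fold, and sums without the most counted member. Sums without PAGE5 were added after the data were seen.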

Additional observations from a re-analysis of the deposited data

How the results depend on the processing

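No paired analysis was possible because each group is 1 library. None of the 54 log2 ratios of named members changed sign under total-count, upper-quartile or DESeq2 scaling or a pseudocount of 1 CPM, although total counts shifted all ratios of shBAP1 to shEmpty by 0.12. The pseudocount moved 14 of the 54 past their counting interval, each toward 0, MAGEB2 in shBAP1 from 7.04 to 3.77 among them. Beside each count stands the share of all genes with a count called at that setting. Calls higher in shBAP1 numbered 10 without a count minimum (7.83%). Calls in shPRAME against shEmpty numbered 6 higher at a minimum of 10 (13.4%) and 7 without one (11.8%), and 3 lower at a fold limit of 1.5 (21.6%). In shPRAME against shBAP1, 4 were higher without a minimum (13.7%) and 0 at a fold limit of 3 (7.69%) or with the whole interval beyond 2-fold (10.7%), and 7 were lower at a minimum of 10 (12.2%), 10 without one (10.5%) and 7 at a fold limit of 1.5 (24.3%).

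Family sums were also taken without the most counted member. For shBAP1 over shEmpty the log2 ratios without it were 0.19 (MAGEA), 2.66 (MAGEB), 2.3 (MAGEC) and 2.14 (GAGE, from -0.12). For shPRAME over shEmpty they were -0.46 (MAGEA), 3.64 (MAGEC), -3.72 (PAGE, without PAGE2), 3.56 (GAGE) and -1.96 (SSX, from 0.94). For shPRAME over shBAP1 they were -0.65 (MAGEA), -1.04 (MAGEB), 1.34 (MAGEC), -4.52 (PAGE) and -4.94 (SSX). For the ratios that changed sign, the full sums were 8 and 11 counts (GAGE) and 15 and 8 counts (SSX), and the reduced sums were smaller still. Without SSX1 the SSX genes had 4 counts in shEmpty, 25 in shBAP1 and 1 in shPRAME. GAGE2E, the GAGE gene left out, had 9, 1 and 6 counts in that order. Without PAGE5, chosen after the data were seen, PAGE was at -0.06 over shEmpty and -0.72 over shBAP1 in shPRAME. Total counts gave 0.56 (MAGEA) and 0.84 (PAGE) for shBAP1 over shEmpty and -0.82 (MAGEA) for shPRAME over shBAP1. Upper-quartile scaling gave MAGEA 0.51 in shBAP1 and -0.21 in shPRAME over shEmpty. A pseudocount gave MAGEB 3.58 and SSX 1.61 in shBAP1 over shEmpty and MAGEB -2.79 in shPRAME over shBAP1. Where no cause follows from the alternative itself, the cause was not tested.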
